A study of Mus musculus with 8 samples.

Results

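The genes of 5 EGF-like growth factors (Areg, Ereg, Epgn, Btc and Nrg1) and of 3 ErbB receptors (Egfr, Erbb2 and Erbb3) were examined for accessible chromatin in mouse granulosa cells, which line the ovarian follicle and nurse its oocyte. Every ATAC-seq peak that overlapped one of these 8 genes, or the 50 kb on either side of it, was taken, with gene positions from the RefSeq table of mouse assembly GRCm38.p6. This gave 113 of the 98245 regions formed by merging the peak intervals of all 8 libraries. In ATAC-seq the enzyme Tn5 inserts adapters wherever DNA is not packed away, and a peak is a stretch that gathered many insertions.

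Epidermal growth factor (EGF)-like ligands are made as membrane-anchored precursors that metalloproteases cut loose, and they bind receptor tyrosine kinases of the ErbB family, which pair up and signal to the ERK cascade. In the preovulatory follicle, luteinising hormone (LH) acts on the outer granulosa cells, and amphiregulin, epiregulin and betacellulin (Areg, Ereg and Btc) are the known relays that carry its signal to the cumulus cells around the oocyte through the EGF receptor. Epigen (Epgn) is a further ligand of that receptor, while neuregulin 1 (Nrg1) binds ERBB3, which signals mainly through its partner ERBB2. ERBB2 itself binds no known ligand.

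The LH experiment used wildtype CBA x C57BL/6 F1 mice, and the PR experiment, named for the progesterone receptor (PR, gene Pgr), used strain C.129S7(B6)-Pgrtm1Bwo/OmcJ, with wildtype mice (WT) and mice of genotype PR knockout (KO). All mice were 21 days old and received 5 IU of eCG (equine chorionic gonadotropin, or PMSG), which makes follicles grow. The libraries titled PMSG come from mice collected 46 h later without further hormone, and those titled hCG, WT and KO from mice given 5 IU of human chorionic gonadotropin (hCG), which stands in for the LH surge, and collected 6 h after it. Each group had 2 libraries, each from the cells of 2 to 3 pooled mice, obtained by puncturing ovaries. In the LH experiment the time tags say otherwise (0 h on the hCG libraries and 6 h on the PMSG libraries); titles and source names, which match each other, set every direction below. The labels name no promoter or Cre that would limit the knockout to a cell type. The LH and PR experiments differ in strain, so a difference between their libraries cannot be told apart from strain.

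The shortest list, of KO replicate 2, held 55654 intervals, and the longest, of WT replicate 2, held 84313. Read depth is unknown. Both WT lists (80137 and 84313 intervals) were longer than both KO lists (58851 and 55654), which bears on every WT-against-KO count. Both hCG lists (65567 and 62327 intervals) were likewise longer than both PMSG lists (57992 and 58780), which bears on the hCG-against-PMSG counts. At the lower-coordinate end of Pgr, the targeted gene, 6 libraries had a single interval, while KO replicate 1 and KO replicate 2 each had a pair of intervals with gaps of 272 and 394 bp. Of 8 granulosa marker genes, 6 or 7 had a peak within 1 kb of an end in each library. Cyp19a1 (aromatase) had none in any library, and Nr5a2 had one only in WT replicate 1. The same count was 2 or 3 of 4 theca markers, 1 or 2 of 4 oocyte markers, 2 of 4 endothelial markers, 0 or 1 of 4 immune markers and 2 or 3 of 3 ovarian epithelium markers. Among immune markers, Ptprc, Adgre1 and Csf1r had none in any library, and Cd68 had one in both hCG libraries only. The epithelium marker Upk3b had one in both hCG libraries and KO replicate 1, and in neither PMSG library. What other cells contributed to the results was not tested.

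The promoters of 3 chromosome 5 ligands show how differently these genes were open at their starts. RefSeq promoter windows (GRCm38.p6) were matched for 5 of the 8 genes, Areg, Epgn, Btc, Egfr and Erbb2, and not for Ereg, Nrg1 and Erbb3. The 250 bases before the start are printed 5′ to 3′ on the gene's own strand for Areg (chr5:91139349-91139598, plus strand), Epgn (chr5:91027267-91027516, plus strand) and Btc (chr5:91402995-91403244, minus strand). Capitals mark, on either strand, the cAMP response element TGACGTCA and its first 5 bases TGACG. The 6 capitals in Epgn that come first mark the reverse strand of TGTTCT, a short progesterone receptor motif.
Areg: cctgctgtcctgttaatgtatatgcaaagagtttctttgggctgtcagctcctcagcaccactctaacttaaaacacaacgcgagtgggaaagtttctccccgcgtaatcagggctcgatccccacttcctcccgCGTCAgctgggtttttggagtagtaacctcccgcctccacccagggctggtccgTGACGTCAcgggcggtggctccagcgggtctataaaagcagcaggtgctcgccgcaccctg
Epgn: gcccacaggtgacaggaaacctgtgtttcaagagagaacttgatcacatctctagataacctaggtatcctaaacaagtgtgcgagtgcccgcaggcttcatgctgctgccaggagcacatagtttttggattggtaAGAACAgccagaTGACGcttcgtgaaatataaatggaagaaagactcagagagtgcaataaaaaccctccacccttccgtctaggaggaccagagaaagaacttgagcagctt
Btc: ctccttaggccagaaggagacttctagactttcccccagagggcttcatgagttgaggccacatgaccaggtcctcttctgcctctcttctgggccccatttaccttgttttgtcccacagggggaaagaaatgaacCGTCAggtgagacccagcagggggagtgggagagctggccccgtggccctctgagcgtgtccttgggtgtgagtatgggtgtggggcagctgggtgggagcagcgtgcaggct

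The whole 250 bases of the Areg promoter lay inside a peak in all 8 libraries. None of the 250 bases before Epgn lay in a peak in any library. In Btc, peaks covered 169 and 181 bases in hCG, 186 and 181 in PMSG, 204 and 210 in WT, and 248 and 177 in KO; hCG and PMSG met at 181 and the WT values lay between those of KO. The Egfr window was covered whole in all 8 libraries, and the Erbb2 window over 248 and 213 bases in hCG, 199 and 212 in PMSG, 229 and 250 in WT, and 250 and 199 in KO. The Areg and Egfr promoters were thus open and the Epgn promoter not called open in every group.

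Both strands of these windows were searched for 8 motifs, and the share of all 32851 windows of the same length that hold each is given with it. The full response element TGACGTCA, the site of CREB-family factors that cAMP signalling activates, was in Areg only, with its first base 61 bases before the start (1.55% of all windows). The shorter TGACG, which the full element contains on both strands, was in Areg, Btc, Epgn and Erbb2 (17.8%). TGTTCT was in Epgn only (16.1%). None of the 5 windows held AP-1 as TGANTCA (6.75%), RUNX as TGTGGT (14%), NR5A as AAGGTCA (4.08%), C/EBP as TTGCNNAA (9.56%) or the full progesterone receptor element (0.387%). A match of letters is no measure of binding.

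In the following, a region is hCG-only if both hCG libraries have a peak in it and neither PMSG library does, and PMSG-only in the reverse case. No read counts were used here, so single regions carry no test. At the 8 genes, 24 of the 98 regions held by at least 1 LH library were hCG-only, a share of 24.5%, beside 17.6% of the 80889 such regions genome-wide. PMSG-only regions numbered 12 (12.2%, beside 10.3%). Of the 24 hCG-only regions, 16 lay at the 4 ligands of chromosome 5, where they were 16 of 33 (48.5%) and PMSG-only regions 2 (6.06%). At the 3 receptors, 6 of 52 were hCG-only (11.5%) and 7 PMSG-only (13.5%). The hCG-only counts at the 8 genes and at the chromosome 5 ligands, but not the PMSG-only count at the 8 genes, moved by over 1.5 times with lists of equal length. With the 55654 strongest intervals of every library, hCG-only regions were 8 of 27 (29.6%) at the chromosome 5 ligands and 15 of 87 (17.2%) at all 8 genes, beside 15.3% genome-wide, and 11 of the 87 were PMSG-only (12.6%, beside 13.4%).

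**Figure D1:**
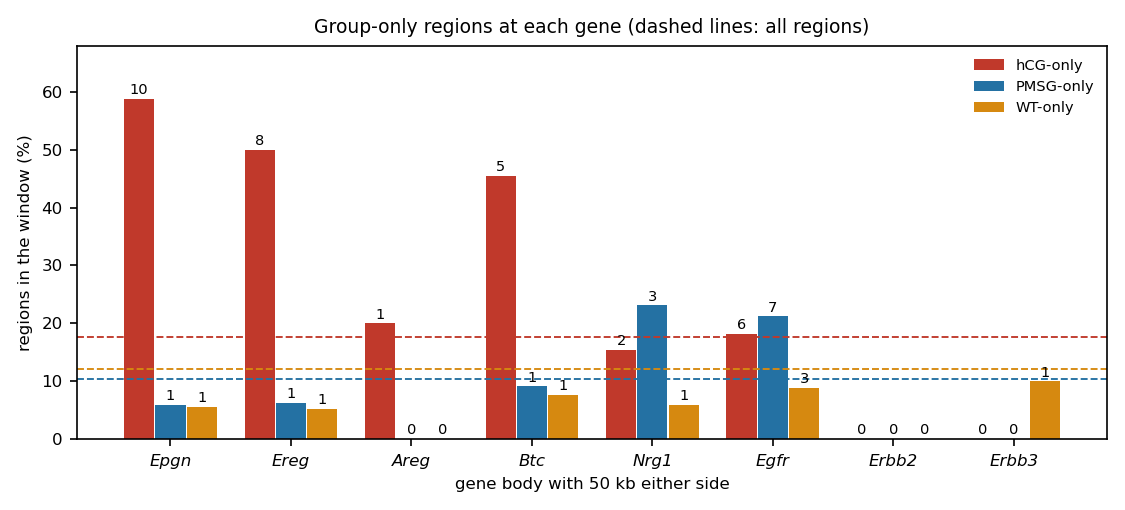
Share of regions (%, vertical axis) in each gene's window that are hCG-only (red), PMSG-only (blue) or WT-only (orange), with the number of regions above each bar. Dashed lines give the genome-wide shares of 17.6%, 10.3% and 12.1%. Epgn, Ereg and Btc have the highest red bars (10, 8 and 5 regions), and Erbb2 has no group-only region. The windows of Epgn, Ereg and Areg overlap, so that some regions count for a pair of genes.

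Epgn (chr5:91027517-91035212), Ereg (chr5:91074617-91093649) and Areg (chr5:91139599-91148432) lie next to each other. The windows of Epgn and Ereg share 14 regions, and those of Ereg and Areg share 5. Together they hold 25 regions, of which 11 of the 22 held in the LH experiment were hCG-only and 1 was PMSG-only. Taken singly, Epgn had 10 hCG-only regions of 17, Ereg 8 of 16 and Areg 1 of 5. Of 21631 protein-coding genes, 0.213% had at least as many hCG-only regions in their window as Epgn, 0.703% as many as Ereg, and 54.6% as many as Areg. These ranks rest on raw counts that moved with the processing. The windows of Epgn and Ereg held 19 regions each, 14 of them shared, beside a median of 8 over all genes. With lists of equal length Epgn had 3 hCG-only regions and Ereg 2, and with a 10 kb flank 4 and 3. With the strongest 20000 intervals they had 0 and 1, when Epgn had 4 PMSG-only regions. Areg had 1 under each of these settings, and 2 without hCG replicate 1 or without hCG replicate 2. Most of these regions were among the weaker peaks. Their median percentile, the rank of the authors' fold enrichment in its own list with 100 the strongest, was 12.2, and 8 of 11 lay below percentile 20, beside a median of 38.0 and 25.2% for all hCG-only regions. With lists of equal length, 4 of 18 regions at the 3 genes were hCG-only (22.2%, beside 15.3% genome-wide).

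Covered length at this locus sums the same peaks, so it is not independent of the counts above. It was higher in hCG. Peaks covered 269.27 and 252.42 bp per Mb of the library's total covered length in hCG replicates 1 and 2, and 179.31 and 160.05 in PMSG replicates 1 and 2. The groups did not overlap, at 260.84 ± 11.92 in hCG and 169.68 ± 13.62 in PMSG (SD, n = 2), a ratio of 1.54. The direction turned with the strongest 20000 intervals of each list, where hCG minus PMSG was -123.1 bp per Mb. The exact two-sided permutation test on all intervals gave p = 0.333, the smallest that 2 libraries against 2 allow.

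At Areg, the region over the start (chr5:91139119-91140034) was open before and after hCG. Its fold enrichment was 11.95 and 10.89 in hCG, 15.64 and 15.95 in PMSG, 15.54 and 13.97 in WT, and 13.22 and 12.17 in KO. Within their own lists these peaks ranked at percentiles 78.6 and 68.4 in hCG and 87.5 and 87.4 in PMSG, so both hCG libraries ranked the Areg start lower. The percentiles in WT (92.44 and 83.38) and KO (85.87 and 81.08), also collected after hCG, lay above both hCG values. The hCG-only region of Areg, chr5:91156755-91157152, lay 8.52 kb beyond the gene on its downstream side. It had fold enrichments of 9.87 and 13.7 in hCG, no peak in PMSG, 8.05 and 9.72 in WT, 8.68 in KO replicate 1 and no peak in KO replicate 2. The Areg window as a whole held 2141 and 1999 covered bp in hCG and 1205 and 944 in PMSG.

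Ereg was likewise open in all 8 libraries at its lower-coordinate end (chr5:91073765-91075263). There the fold enrichment was 8.2 and 7.44 in hCG, 13.41 and 14.73 in PMSG, 9.32 and 9.64 in WT, and 7.69 and 10.82 in KO. The percentile was 49.6 and 37.6 in hCG and 77.7 and 82.2 in PMSG, with no overlap, whereas the interval was longer in hCG (1329 and 1169 bp) than in PMSG (1025 and 1048 bp). Rank and width of this peak therefore ran in opposite directions between the same libraries.

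The hCG-only region with the highest mean percentile in Ereg's window, chr5:91082787-91083454, lies within the gene body. Its fold enrichment was 7.76 and 7.58 in hCG, 6.89 and 6.76 in WT, and 4.97 and 5.26 in KO, so that all 6 libraries collected after hCG held it. The only PMSG-only region of the 3-gene locus, chr5:91067987-91068487, lies 6.38 kb before that lower end of Ereg and was one of the strong peaks there, with fold enrichments of 17.23 and 17.62 in PMSG (percentiles 93.0 and 93.0). It had 7.14 in WT replicate 1, 4.83 in WT replicate 2, 6.54 in KO replicate 2 and no peak in KO replicate 1 or in either hCG library. Between Epgn and Ereg, chr5:91049721-91050149 was hCG-only and held by every post-hCG library, with fold enrichments between 4.14 and 5.24.

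Epgn had its openings inside and around the gene, and none over the promoter window. Region chr5:91027958-91028314 lies 0.619 kb inside the gene and was hCG-only, with fold enrichments of 4.97 and 3.83 in hCG, 6.11 and 6.72 in WT, and 3.84 and 6.85 in KO. Region chr5:91029142-91029419, also within Epgn, was held by hCG (5.05 and 5.56) and WT (3.91 and 3.93) and by no PMSG or KO library, which made it both hCG-only and WT-only. At chr5:90988734-90988939, inside the neighbouring gene Mthfd2l, only both hCG libraries had a peak (6.08 and 8.08). Presence here thus ranged from all 6 post-hCG libraries to a single group.

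Btc (chr5:91357261-91402994) carried the hCG-only regions with the highest mean percentiles at the 8 genes (96.38 and 88.64). A region at Nrg1 (83.94) came next, above the third at Btc (80.89). In the Btc window 5 of 11 regions were hCG-only (45.45%, beside 17.6% genome-wide), a number that 3.8% of protein-coding genes reached. Their median percentile was 80.9, with a lowest value of 4.29. The foremost, chr5:91375380-91375962 in the gene body, had fold enrichments of 16.06 and 16.13 in hCG, none in PMSG, 19.91 and 20.1 in WT, and 16.06 and 9.81 in KO. It ranked at percentiles 96.4 and 96.3 in hCG, 99.4 and 98.5 in WT, and 96.8 and 67.1 in KO. All 6 post-hCG libraries thus held a peak where neither PMSG library did, and KO replicate 2 had the lowest fold of the 6. With lists of equal length 4 of 9 regions were hCG-only (44.4%, beside 15.3% genome-wide).

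A pair of further regions in the Btc body had the same presence. Fold enrichments at chr5:91385766-91386525 were 14.46 and 13.48 in hCG, 14.37 and 15.71 in WT, and 12.78 and 7.71 in KO. At chr5:91370247-91370687 they were 11.58 and 13.44 in hCG, 11.82 and 13.58 in WT, and 10.86 and 5.87 in KO. In both, as in the foremost region, KO replicate 2 had the lowest fold and the lowest percentile of the 6 libraries. KO replicate 1 lay closer to the hCG libraries. Percentiles at chr5:91385766-91386525 were 91.52 and 85.75 in hCG, 83.38 in KO replicate 1 and 49.97 in KO replicate 2. At chr5:91370247-91370687 they were 76.23 and 85.54 in hCG, 70.45 in KO replicate 1 and 29.28 in KO replicate 2. The annotation used gives no exons, so whether the 3 regions are intronic or exonic is not stated here.

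The Btc start region, chr5:91402389-91403242, was open throughout and ranked the other way. Its fold enrichment was 6.75 and 6.12 in hCG, 11.21 and 11.68 in PMSG, 8.51 and 8.16 in WT, and 6.32 and 6.9 in KO. Percentiles were 35.3 and 23.8 in hCG against 64.9 and 65.8 in PMSG. Btc's PMSG-only region, chr5:91439311-91439469, had 9.28 and 11.04 in PMSG and 7.85 in WT replicate 1. Over the window, 152.55 and 153.89 bp per Mb were covered in hCG and 87.446 and 90.887 in PMSG, a ratio of 1.72 without overlap (exact permutation p = 0.333). One region shared by all 8 libraries, chr5:91319852-91321060, was 1054 and 1133 bp long in hCG and 379 and 391 bp in PMSG, a width ratio of 2.84. That is the highest of the 40 regions at the 8 genes that all LH libraries hold, the 4 such regions at Btc ranged from 0.897 to 2.84, and over all such regions the median was 1.17, with 21.1% above 1.5.

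**Figure D2:**
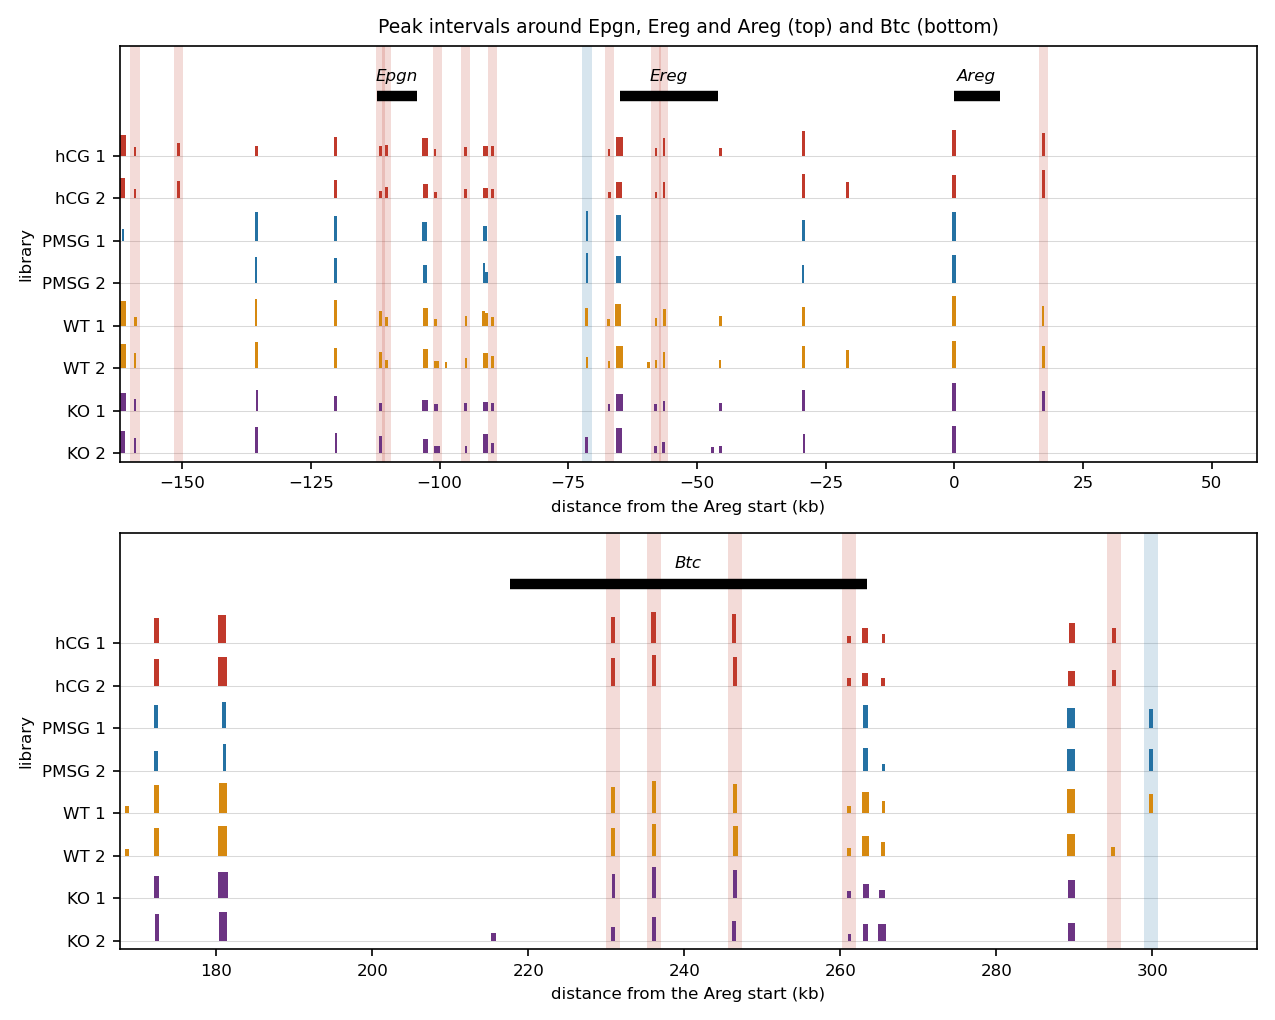
Peak intervals of each library around Epgn, Ereg and Areg (upper panel) and Btc (lower panel), by distance from the Areg start in kb. Each bar is an interval, drawn at least 0.5 kb wide, and its height is its percentile in its own list. Red shading marks hCG-only regions and blue shading PMSG-only regions. The 3 tall red-shaded columns in Btc are absent from both PMSG rows, while the columns at the Areg start and the lower end of Ereg stand in all 8 rows.

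**Figure D3:**
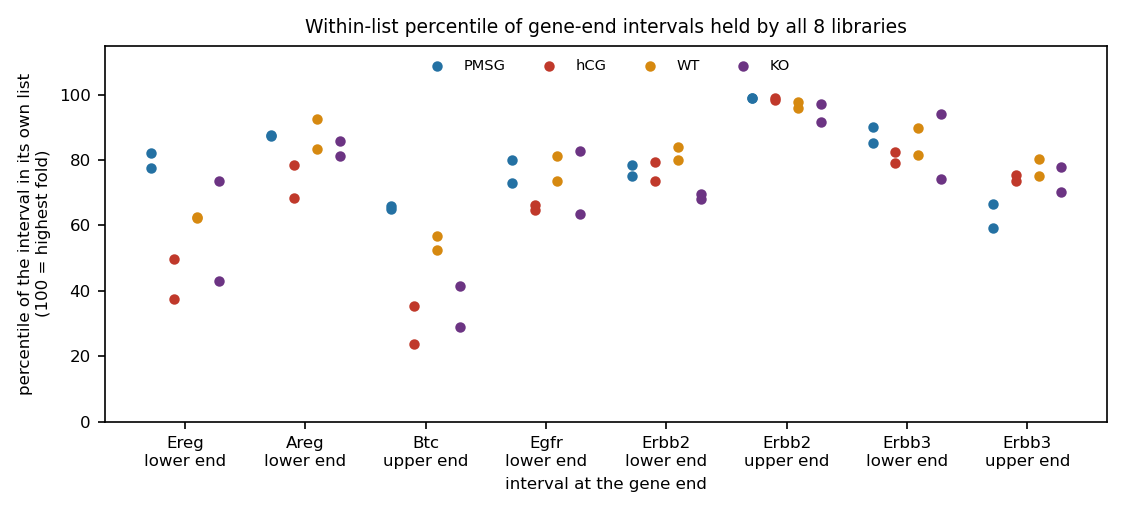
Percentile in its own list (vertical axis, 100 the highest fold) of the peak at a gene end that all 8 libraries hold, 1 point per library. Both hCG points lie below both PMSG points at 6 of the 8 ends, as at 51.1% of such gene ends genome-wide (at the upper end of Erbb2 by less than the width of a point). They lie above them at the upper end of Erbb3, and the groups overlap at the lower end (the start) of Erbb2.

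Nrg1 (chr8:31807452-32891609) is the longest of the genes and the most thinly covered, with 1.52 regions per 100 kb of window against a median of 8.96 over the 8 genes and 6.26 over all protein-coding genes. No region lay at either end, and 16 of its 18 regions lay within the body. Of 13 regions in the LH experiment, 2 were hCG-only (15.4%, beside 17.6% of all regions) and 3 PMSG-only (23.1%, beside 10.3%). At least 2 hCG-only regions occurred at 29.6% of genes and at least 3 PMSG-only regions at 4.62%, counted in windows of any length, and that of Nrg1 is 1184 kb long. With the strongest 20000 intervals the counts were 1 hCG-only and 0 PMSG-only, and without PMSG replicate 1 there were 5 PMSG-only regions.

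The hCG-only region chr8:31907380-31908054 had fold enrichments of 13.04 and 12.98 in hCG, 12.64 and 17.3 in WT, and 10.76 and 7.91 in KO. Region chr8:31845954-31846185 had 8.68 and 9.3 in hCG, 7.66 and 10.79 in WT, and 8.46 and 6.0 in KO. Both were therefore present in every post-hCG library. Among the PMSG-only regions, chr8:31855700-31856086 had 9.97 and 12.62 in PMSG and otherwise a peak only in WT replicate 1 (5.5). Region chr8:31847027-31847400 had 10.46 and 10.77 in PMSG, 7.52 in WT replicate 1 and 6.88 in KO replicate 2. By contrast chr8:31864660-31865165, with 12.32 and 10.52 in PMSG, was also held by all 4 PR libraries (6.45 to 10.6), so its absence from hCG was not shared by the other post-hCG mice. Covered length was lower in hCG (115.21 and 108.17 bp per Mb) than in PMSG (161.36 and 159.11), without overlap (exact permutation p = 0.333).

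Egfr (chr11:16752203-16913907), the receptor of the chromosome 5 ligands, had regions of both kinds. Of 33 regions, 6 were hCG-only (18.2%, beside 17.6% genome-wide) and 7 PMSG-only (21.2%, beside 10.3%). At least as many hCG-only regions occurred at 2.08% of genes, and at least as many PMSG-only regions at 0.19%. These are raw counts, and the Egfr window held 36 regions beside a median of 8 over all genes. With only peaks of a deposited −log10 q of 20 or more the PMSG-only count was 4, and with the strongest 20000 intervals there were 2 regions of each kind. The PMSG-only regions had a median percentile of 8.47, and 4 of 7 lay below percentile 20, beside 34.2 and 25.7% for all PMSG-only regions. Covered length was 315.12 and 315.69 bp per Mb in hCG and 366.07 and 359.83 in PMSG, lower in both hCG libraries (exact permutation p = 0.333). Before scaling the order was the reverse, with 12289 and 12050 covered bp in hCG and 10926 and 10749 in PMSG, a ratio of 1.12 beside 1.29 for the whole lists.

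The Egfr start region, chr11:16751706-16753397, was held by all 8 libraries at percentiles of 64.7 and 66.4 in hCG, 80 and 73 in PMSG, 73.7 and 81.1 in WT, and 63.6 and 82.8 in KO. Of the PMSG-only regions in its body, chr11:16828340-16828589 had fold enrichments of 13.44 and 13.54 in PMSG, 10.01 and 8.23 in WT, and 8.68 and 6.93 in KO. It was thus absent from the hCG libraries of the F1 mice and present in all 4 post-hCG libraries of the other strain. Region chr11:16777210-16777847 had 9.78 and 9.57 in PMSG, 7.11 and 5.33 in WT, and 4.04 and 4.95 in KO, with lengths of 540 and 525 bp in WT and 194 and 182 bp in KO. At chr11:16863522-16863763 it was 8.35 and 8.85 in PMSG, 4.41 and 3.71 in WT, and 4.16 in KO replicate 1. Only chr11:16817536-16817880 was held by PMSG alone (5.26 and 4.47). Among hCG-only regions, chr11:16843957-16844628 had 8.72 and 10.17 in hCG, 9.09 and 8.39 in WT, and 6.72 and 5.11 in KO. Region chr11:16820126-16820560 had 6.46 and 6.67 in hCG, 5.95 and 7.72 in WT, and 6.18 in KO replicate 1. Region chr11:16783594-16783819 had 5.85 and 7.97 in hCG and otherwise a peak only in WT replicate 2 (6.59).

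**Figure D4:**
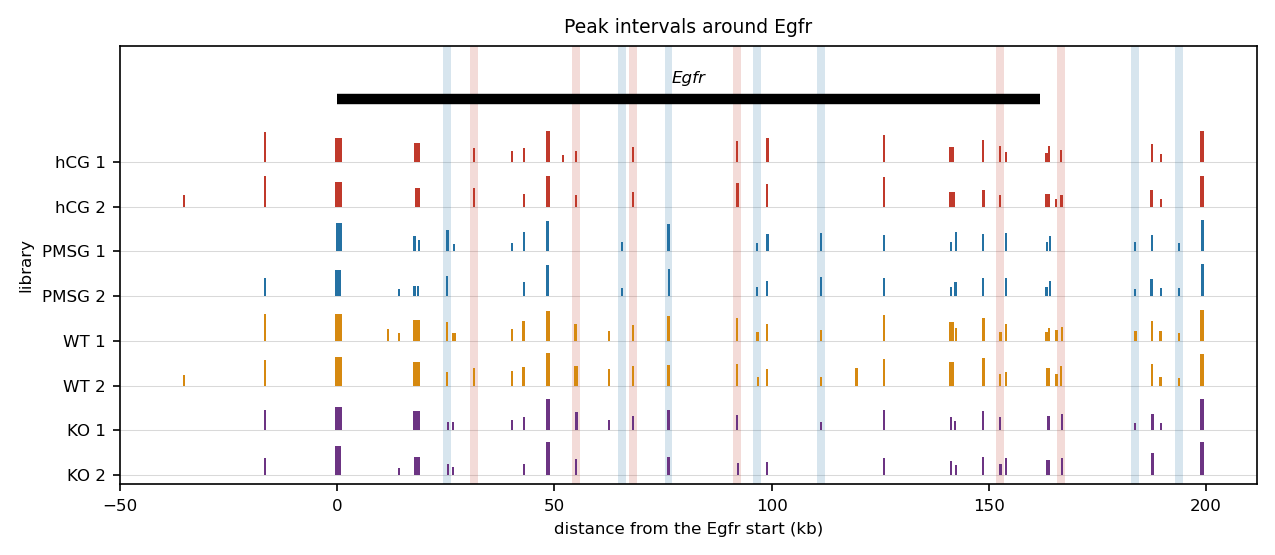
Peak intervals of each library by distance from the Egfr start in kb, drawn at least 0.5 kb wide, with bar height the percentile in the library's own list. Red shading marks the 6 hCG-only regions and blue shading the 7 PMSG-only regions. The blue-shaded column in the middle of the gene stands in the PMSG, WT and KO rows and is absent from both hCG rows.

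Erbb2 (chr11:98412484-98437716) and Erbb3 (chr10:128567523-128589635) had no hCG-only and no PMSG-only region among 8 and 11. All 8 libraries held 6 of the 10 regions of Erbb2 and 8 of the 11 of Erbb3, against 33.6% of the regions at all 8 genes and 37.9% of all regions. Both lie among close neighbours (Stard3, Pgap3, Mien1 and Ikzf3 at Erbb2, and Esyt1, Zc3h10, Rpl41, Pa2g4, Rps26 and Ikzf4 at Erbb3), so that peaks in their windows may belong to other genes. Peaks at these genes were wider in hCG than in PMSG, as they were over the whole lists. Over all intervals the median width was 488 and 502 bp in hCG and 422 and 412 bp in PMSG. All 14 regions held by the 4 LH libraries were longer in both hCG than in both PMSG libraries, beside 64.2% of such regions genome-wide, and none was longer in both PMSG libraries, beside 11.8%, with a median width ratio of 1.22 beside 1.17. At the Erbb2 start (chr11:98412186-98413940) peaks covered 1496 and 1472 bp in hCG, 860 and 899 in PMSG, 1284 and 1725 in WT, and 1695 and 1237 in KO.

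The rank of the Erbb2 start overlapped between groups, at percentiles of 79.3 and 73.5 in hCG and 75.2 and 78.6 in PMSG. The region at the upper-coordinate end of Erbb3, chr10:128589263-128590665, ranked at percentiles of 73.5 and 75.3 in hCG against 59.2 and 66.4 in PMSG. At the lower-coordinate end of Erbb3, the region chr10:128565404-128566735, which overlaps the neighbour Pa2g4, ranked lower in hCG (82.32 and 79.03) than in PMSG (90.15 and 85.34). The region at the upper-coordinate end of Erbb2, chr11:98438200-98439162, which overlaps Mien1, had percentiles of 98.89 and 98.19 in hCG and 98.90 and 99.08 in PMSG. Of the 8 gene-end peaks held by all 8 libraries, 6 ranked lower in both hCG libraries, 1 higher and 1 overlapped, beside 51.1%, 18.5% and 30.4% of the 12399 such peaks at the ends of all protein-coding genes. With lists of equal length the counts were the same, beside 59.3%, 13.5% and 27.1%. Covered length at Erbb3 was 253.24 and 265.49 bp per Mb in hCG and 286.93 and 289.46 in PMSG (exact permutation p = 0.333), and hCG minus PMSG turned to 12.24 with the strongest 20000 intervals. Before scaling it was 9876 and 10134 bp in hCG and 8564 and 8647 in PMSG, a ratio of 1.16, so the order depends on the scaling here too.

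**Figure D5:**
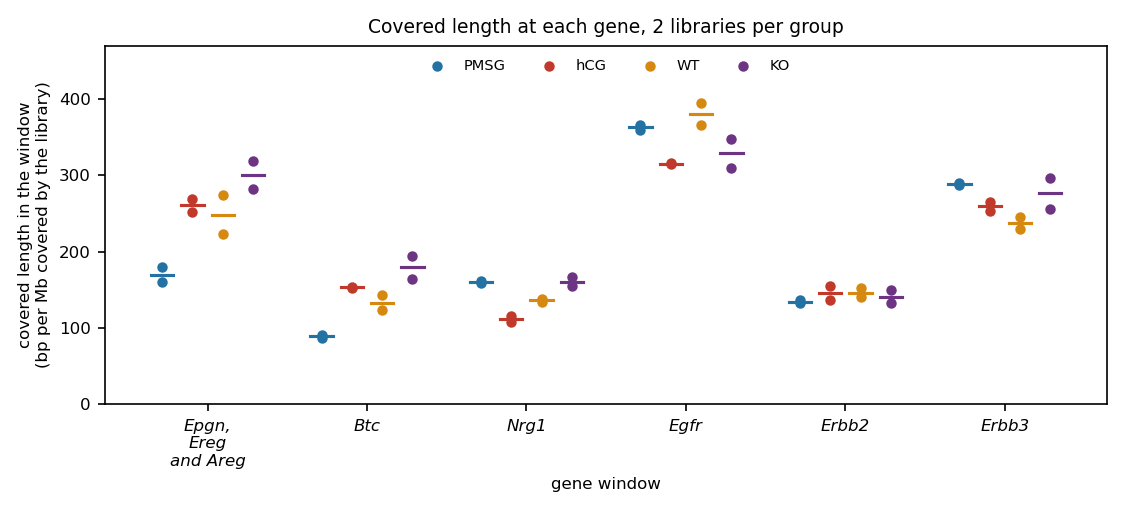
Covered length in each gene window (vertical axis, bp per Mb covered by the library), 1 point per library and a bar at each group mean. Both hCG points lie above both PMSG points at Epgn, Ereg and Areg and at Btc, below them at Nrg1, Egfr and Erbb3, and overlap them at Erbb2. Without the scaling the order is reversed at Egfr and Erbb3, and both hCG libraries lie above both PMSG libraries at Erbb2 (6034 and 5198 against 3942 and 4072 bp, a ratio of 1.4 beside 1.29 for the whole lists).

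The hCG libraries could be set beside the WT and KO libraries, which were all collected after hCG in another strain. Of the 24 hCG-only regions at the 8 genes, 21 were held by both WT libraries (87.5%, beside 78.5% of all hCG-only regions) and 17 by both KO libraries (70.8%, beside 41.5%). Library by library, 21 were held by WT replicate 1, 23 by WT replicate 2, 20 by KO replicate 1 and 17 by KO replicate 2, beside 79.7%, 91.2%, 62.9% and 44.3% of all hCG-only regions. The 17 were held by all 6 post-hCG libraries and no PMSG library, 15.0% of the 113 regions beside 5.88% of all regions, and 11 of them lay at the chromosome 5 ligands. Of the 12 PMSG-only regions, 7 were held by both WT (58.3%, beside 43%) and 3 by both KO libraries (25.0%, beside 14.8%). Peaks missing from the hCG libraries were thus often present in the WT libraries.

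Between WT and KO, the comparison that concerns the progesterone receptor after hCG, 7 of 108 regions at the 8 genes were WT-only (6.48%, beside 12.1% of all regions). None was KO-only, beside 0.0802%. Egfr had 3 WT-only regions, Erbb3, Nrg1 and Btc 1 each, and Epgn and Ereg shared 1. Of the 7, 6 lay below percentile 20, with a median percentile of 8.92, beside 32.2% and a median of 28.1 for all WT-only regions. With lists of equal length none of 91 was WT-only (beside 4.25% genome-wide) and 4 were KO-only (4.40%, beside 4.15%). Without WT replicate 1 the WT-only count was 17, without WT replicate 2 it was 12, and without KO replicate 1 it was 16. KO-only regions were 3 without KO replicate 1 and 1 without WT replicate 1.

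The strongest WT-only region was at Erbb3, chr10:128604699-128605049, with fold enrichments of 6.42 and 4.66 in WT, 7.78 and 7.24 in PMSG, 5.34 in hCG replicate 2 and no peak in KO. The one at Nrg1, chr8:31821738-31821877, had 4.99 and 4.73 in WT and no peak in any other library, and the one at Btc, chr5:91308042-91308187, likewise had a peak in WT alone (2.64 and 2.15). At Egfr, chr11:16917643-16917869 had 4.39 and 4.77 in WT and 3.9 in hCG replicate 2. Both chr11:16848574-16849124 (4.0 and 3.8 in WT, 4.52 and 4.9 in PMSG) and chr11:16945794-16946056 (3.34 and 2.79 in WT, 4.63 and 4.05 in PMSG) were also PMSG-only. Of the 7 WT-only regions, 1 was thus hCG-only, at Epgn and Ereg, and 2 were PMSG-only.

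Of the 66 regions at the 8 genes held by all 4 PR libraries, 15 were longer in both WT than in both KO libraries (22.7%, beside 34.8% of such regions genome-wide) and 9 longer in both KO libraries (13.6%, beside 5.89%). Egfr had 7 of the 15 among its 17 regions, and its lowest and highest WT to KO width ratios were 0.61 and 2.83.

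Covered length between WT and KO was not in 1 direction. At Epgn, Ereg and Areg it was 223.54 and 273.51 bp per Mb in WT and 282.53 and 318.52 in KO. At Btc it was 123.6 and 142.71 in WT and 164.44 and 194.4 in KO, and Nrg1 and Erbb3 were likewise lower in both WT libraries. At Egfr the order was the reverse, with 395.12 and 366.18 in WT and 348.1 and 309.3 in KO. Each of these had an exact permutation p of 0.333, and Erbb2 overlapped between groups. With the strongest 20000 intervals WT minus KO turned to 52.79 at Btc and 74.05 at Nrg1, and with lists of equal length to 4.794 at Erbb3. These orders also depend on the scaling. Before it, covered bp overlapped between WT and KO at Epgn, Ereg and Areg, at Btc and at Nrg1, and both WT libraries were higher at Egfr (17349 and 15980 against 13544 and 9793), Erbb2 and Erbb3 (10783 and 9993 against 9940 and 9401). Over all 8 genes the value was 1282.1 ± 27.19 in WT and 1386.2 ± 44.9 in KO (SD, n = 2), and 1260.1 and 1231.8 in the hCG libraries against 1213.2 and 1195.7 in the PMSG libraries (exact permutation p = 0.333 in each comparison). Both of these differences over the 8 genes changed direction with the strongest 20000 intervals. Before scaling both WT libraries were higher, with 55450 and 56789 bp against 52699 and 44894 in KO, a ratio of 1.15 beside 1.24 for the whole lists.

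The other genes of the pathway were taken as 5 lists of 26 genes: other ligands, the receptor Erbb4, ligand release, feedback inhibitors and signal transduction. Of their 303 regions in the LH experiment, 67 were hCG-only (22.1%, beside 17.6%) and 18 PMSG-only (5.94%, beside 10.3%). By list, 10 of 51 regions were hCG-only at the other ligands, 8 of 52 at the release genes, 24 of 93 at the feedback inhibitors and 25 of 100 at the transduction genes. Erbb4, a further neuregulin receptor, had no hCG-only and 3 PMSG-only regions of 7. WT-only regions were 37 of 332 (11.1%, beside 12.1%), with 5 each at Lrig1 and Cbl and 4 at Nrg4, and none was KO-only.

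Among the other ligands, Hbegf (heparin-binding EGF-like growth factor) had 2 hCG-only regions of 9 and no PMSG-only region, and Tgfa (transforming growth factor alpha) had 1 of each among 9. Nrg3 had 4 hCG-only regions of 12. Among release genes, Adam17, the metalloprotease that sheds several EGF-like precursors, had 2 hCG-only and 3 PMSG-only regions of 11. Rhbdf2, which helps ADAM17 mature, had 3 hCG-only regions and 1 PMSG-only region of 22. Of the feedback inhibitors, Lrig1, which lowers ErbB receptor levels, had 10 hCG-only regions and 1 PMSG-only region of 22, Cblb, a ubiquitin ligase, 5 and 1 of 17, Spry2 3 and 0 of 8, Dusp6, an ERK phosphatase, 3 and 3 of 14, and Errfi1, an inhibitor of the EGF receptor kinase, 2 and 1 of 15. Among transduction genes, the adaptors Grb2 and Gab1 had 7 hCG-only regions of 19 and 4 of 16, with 1 PMSG-only region each. The kinase genes Mapk3 and Map2k2 had 3 of 11 and 3 of 15, with no PMSG-only region.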

How the data were processed

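Each library had 1 deposited narrowPeak list, called per sample. The submitters' processing notes name Bowtie2, MACS2 and mm10, with no settings, and whether reads were shifted for Tn5 is not given in the sources used here. Column 7 of the deposited lists is the authors' fold enrichment, a ratio within 1 library. The authors' −log10 p and q values stand in columns 8 and 9 as deposited, and the smallest −log10 q in any list was just above 10. The score in column 5, as deposited by the authors, was not used. Values rank peaks within a list only.

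Summits sharing an interval were counted once with the best fold. Intervals on chromosomes 1 to 19 and X that overlapped by 1 bp or more were merged over all 8 libraries. Group-only shares use regions held by at least 1 library of that experiment. Lists of equal length took the 55654 strongest intervals. Covered length, divided by the library's total covered length, was compared by an exact two-sided permutation test over 2 against 2 libraries. P-values measure the spread between these pools of mice.

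Named regions were, per gene and class, the 3 with the highest mean percentile, plus the regions at gene starts (for Ereg and Erbb3, at gene ends held by all libraries). The region at the upper end of Erbb2 was added after its values were seen. Other pathway genes were named if a class held 3 or more regions, and Hbegf, Tgfa, Erbb4 and Errfi1 always. One gene that met this rule is not reported here. The Epgn region just inside the gene and the Egfr region held by PMSG alone were singled out after their values were seen, as were the width comparisons. The genes and lists were chosen with earlier results of these data known. Alternatives were another flank, a column 9 minimum, the strongest 20000 intervals, equal lists, regions covered over at least 50%, merging within experiments, a replicate block and leaving out each library. Counting steps were tested on simulated data. Python 3.11.15, numpy 2.4.6, pandas 2.3.3 and matplotlib 3.10.9 were used. The gene table gives no strand or exons.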

Additional observations from a re-analysis of the deposited data

How the results depend on the processing

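Counts of group-only regions at the 8 genes moved with list length. With equal lists hCG-only regions were 15 (24 as reported), WT-only 0 (7) and KO-only 4 (0). With the strongest 20000 intervals hCG-only regions were 9, PMSG-only 6 (12) and WT-only 0. With a 10 kb flank WT-only regions were 4. Leaving out 1 library at a time gave 25 to 28 hCG-only, 13 to 15 PMSG-only, 10 to 17 WT-only and 0 to 3 KO-only regions. The difference in covered length between hCG and PMSG (41.55 bp per Mb) was 1.212 with equal lists, -28.96 with the strongest 20000 intervals, 34.05 with a column 9 minimum of 20, 8.363 with a 10 kb flank and 27.41 to 55.69 without 1 library. That between WT and KO (-104.1) was -60.18 with equal lists, 135 with the strongest 20000 intervals and -135.8 to -72.33 without 1 library. Other reversals of the difference, in bp per Mb, occurred with the strongest 20000 intervals for hCG minus PMSG at Epgn, Ereg and Areg (-123.1) and at Erbb3 (12.24), and for WT minus KO at Btc (52.79) and Nrg1 (74.05). At Erbb2, hCG minus PMSG was -7.951 with a column 9 minimum of 20, and WT minus KO was -7.384 with a 10 kb flank, and from -2.799 (without KO replicate 2) through -0.378 (without WT replicate 2) to 13.84 when 1 library was left out. At Erbb3, WT minus KO was 4.794 with equal lists. The causes were not tested. Of 170 per-gene counts under all settings whose reported count is above 0, 114 stayed within 1.5 times of it. In covered bp not scaled by the library's total, an alternative chosen after seeing the data, hCG minus PMSG turned to 1332 at Egfr and 1400 at Erbb3, and WT minus KO to 7323 at all 8 genes, 336.5 at Epgn, Ereg and Areg, 315.5 at Nrg1 and 717.5 at Erbb3.

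Same-numbered replicates did not deviate together in interval length (r = 0.0407 over 40780 regions in the LH experiment and -0.0487 over 48711 in the PR experiment). The labels do not say whether a number marks a shared batch, and interval length alone cannot settle it. With the replicate number as a block the differences were 41.55 and -104.1 as before, with an exact p of 0.5 each, the smallest that 2 pairs allow. The lists carry no read numbers, so a missing peak can be a peak that was not detectable at that library's depth.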

Other observations

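Of the 113 regions at the 8 genes, 13 were held by 1 library only (11.5%, beside 14.3% of all regions). WT replicate 2 held 5 of them, KO replicate 2 held 3, WT replicate 1 held 2, hCG replicate 1, PMSG replicate 1 and PMSG replicate 2 held 1 each, and the other libraries none. One region, chr8:31769629-31769955 near Nrg1, was held by all 4 PR libraries and no LH library, as were 0.667% of all regions, and no region at these genes was held by all 4 LH libraries and no PR library. Regions held by all 4 PR libraries had a median WT to KO width ratio of 1.17 at the 3 receptors and 1.01 at the 5 ligands, beside 1.08 over all regions, and this difference was not tested.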
